A study of Mus musculus with 231 samples.

Results

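The miR-144 and miR-451a cluster is a pair of neighbouring miRNA genes on mouse chromosome 11 that give 3 mature miRNAs, mmu-miR-144-5p, mmu-miR-144-3p and mmu-miR-451a (written below without the species prefix). These 3 were taken by name, and each was present among the 1863 mature miRNAs of the training counts, the 1895 of the training normalised table and the 1817 of the validation normalised table. Their expression was measured by small RNA sequencing of peripheral blood mononuclear cells (PBMC) from C57BL/6 mice, with 231 libraries in all. CM mice carried a conditional Cbfb-MYH11 knock-in allele (Cbfb56M/+) together with Mx1-Cre, a Cre recombinase driven by an interferon-responsive promoter, and developed acute myeloid leukaemia (AML). Cbfb-MYH11 is the mouse form of the inv(16) fusion gene. Expression of the fusion was induced at 6 to 8 weeks of age with 7 doses of poly(I:C) at 14 mg/kg, and control (Ctrl) mice were littermates of the same age that received the same doses. The labels say that Ctrl mice lacked the transgene, whereas the study's methods also allow Cbfb56M/+ mice without Mx1-Cre as controls. Mx1-Cre acts in many interferon-responsive tissues and not in blood alone. The training cohort held 53 libraries of 7 CM mice (4 female, 3 male) and 76 libraries of 7 Ctrl mice (2 female, 5 male), sampled from month 0 to at most month 10. The validation cohort held 60 libraries of 10 CM mice and 42 libraries of 6 Ctrl mice at points numbered from 1 to 7 or marked L, a mark the labels do not explain. The labels gave every CM mouse the code CHW, and the Ctrl mice of the training cohort the codes CW (4 mice), HW (2 mice) and WT (1 mouse), without explaining them. The 6 Ctrl mice of the validation cohort were 3 CW, 2 HW and 1 WT. Each mouse gave blood repeatedly, so libraries of a mouse are not independent, and the mouse is the replicate within each month or point. The main fits between months or points did not include the mouse, so their p-values treat libraries of the same mouse as separate. Fits with the mouse as a block were run as alternatives.

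The cluster is a classical target of the erythroid transcription factor GATA1 and is strongly expressed as red blood cells mature. MiR-144 is processed by Drosha and Dicer like most miRNAs, whereas the miR-451a hairpin is too short for Dicer and is cut by the slicer activity of AGO2 and then trimmed. Both miRNAs are carried by reticulocytes and red cells, which remain in variable number in mononuclear cell preparations from blood. PBMC are bulk samples, so more cells of the red lineage and more of these miRNAs per cell cannot be told apart.

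The 3 mature sequences are shown because the comparisons concern the relation between the arms of miR-144 and between miR-144 and miR-451a. They were taken from RefSeq (GRCm38), in which 3 of 3 members were matched, and the capitals mark the seed, bases 2 to 8.
miR-144-5p: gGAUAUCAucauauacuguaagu
miR-144-3p: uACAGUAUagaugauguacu
miR-451a: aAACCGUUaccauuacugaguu
The 3 seeds differed from each other, and 0 other mature sequences among the 1679 names in the RefSeq table shared any of them.

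The hairpins are shown because they place each mature product, which is in capitals. In the miR-144 hairpin the products lie on opposite arms. In the miR-451a hairpin the product reaches into the loop.
Mir144: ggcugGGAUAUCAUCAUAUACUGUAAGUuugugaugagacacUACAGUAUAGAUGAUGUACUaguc
Mir451a: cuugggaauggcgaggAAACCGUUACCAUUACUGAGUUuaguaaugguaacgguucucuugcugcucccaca
In GRCm38 the miR-144 hairpin is at chr11:78073005-78073070 and the miR-451a hairpin at chr11:78073170-78073241, both on the plus strand and separated by 99 bases. Mature miR-144-5p is at chr11:78073010-78073032, miR-144-3p at chr11:78073047-78073066 and miR-451a at chr11:78073186-78073207. The next annotated gene, Eral1, which encodes a GTPase of the mitochondrial ribosome, begins close beyond the miR-451a hairpin. The sources name mm9 in one place and GRCm38 in another as the alignment build, so these positions describe the locus and not the authors' alignment. MiR-451b, an annotated miRNA on the opposite strand of the miR-451a gene, had at most 2 counts and a median of 0 counts per library.

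The members were among the most abundant miRNAs in blood. The training libraries held between 1792809 and 7958411 counts (median 4437464). MiR-451a took 5.87% ± 4.31 of a library's counts (SD over all training libraries), the 3rd highest mean of the 1863 miRNAs, and ranged from 0.784% to 23.6%. MiR-144-3p took 1.11% ± 0.810 (21st) and miR-144-5p 0.631% ± 0.565 (32nd). The summed share of the 3 members ran from 1.02% in Ctrl mouse 3346 at month 2 to 30.9% in CM mouse 3336 at month 1. The next highest shares were those of Ctrl mouse 3346 at month 8 (26.5%), CM mouse 3368 at month 1 (22.8%) and Ctrl mouse 3349 at month 6 (21.1%). The highest shares thus occurred in both arms. Markers of the labelled cells were present in every training library, with miR-150-5p, a mature lymphocyte miRNA, between 6245 and 79303 CPM (counts scaled to a common library size, with edgeR's TMM factors) and miR-223-3p, a myeloid miRNA, between 1368 and 39421 CPM.

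**Figure D1:**
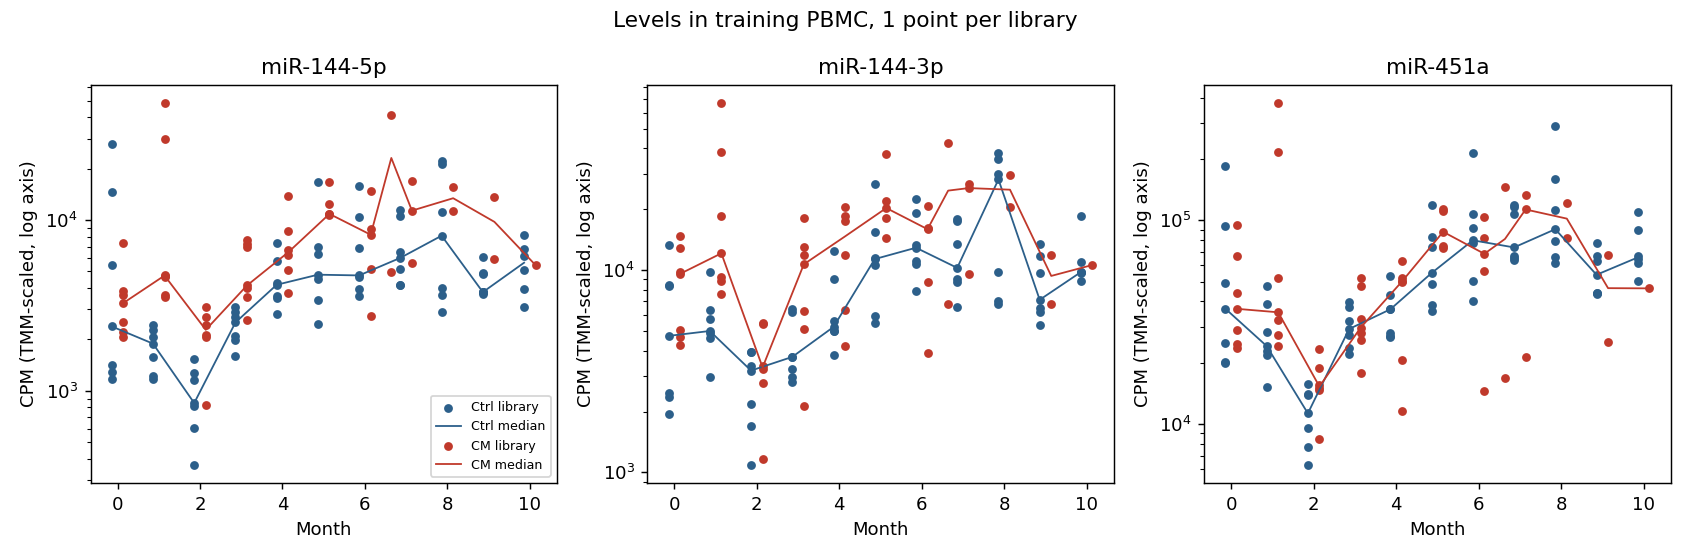
CPM (TMM-scaled, log axis) of miR-144-5p, miR-144-3p and miR-451a by month in the training cohort, with one point per library and lines through the medians of CM and Ctrl mice. At month 1 the 7 CM libraries of miR-144-5p lie between 3523 and 48492 CPM, all above the highest Ctrl library at 2445 CPM.

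The first comparison asked whether the cluster differed between CM and Ctrl mice before and after induction. At month 0, miR-144-5p was at 2066, 3267 and 7320 CPM in CM mice (lowest, median and highest of 7) and at 1171, 2383 and 28013 CPM in Ctrl mice. MiR-144-3p was at 4267, 9590 and 14759 CPM in CM and at 1947, 4730 and 13369 CPM in Ctrl mice. MiR-451a was at 23666, 36762 and 95219 CPM in CM and at 19972, 36800 and 183932 CPM in Ctrl mice. The arms overlapped for all 3 members, and Ctrl mice 3342 and 3340 held the highest 2 levels of miR-144-5p, at 28013 and 14592 CPM. In edgeR's quasi-likelihood test 0 of the 3 members passed an adjusted p of 0.05, where 0.209% of all 478 miRNAs tested did. The log2 fold changes (CM over Ctrl) were -1.19 ± 0.69 (SE) for miR-144-5p, 0.50 ± 0.44 for miR-144-3p and -0.48 ± 0.52 for miR-451a, with adjusted p of 0.461, 0.675 and 0.723.

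At month 1 all 3 members were higher in CM mice. MiR-144-5p was at 3523, 4733 and 48492 CPM in CM mice (lowest, median and highest of 7) and at 1169, 1890 and 2445 CPM in Ctrl mice, and the arms did not overlap, as for 5.08% of the 472 miRNAs tested. MiR-144-3p was at 7645, 12111 and 66993 CPM in CM and at 2975, 5002 and 9797 CPM in Ctrl mice, with 4 of 7 CM mice above every Ctrl mouse. MiR-451a was at 24082, 35346 and 376072 CPM in CM and at 15216, 24152 and 47603 CPM in Ctrl mice, with 3 of 7 CM mice above every Ctrl mouse. The medians thus stood closer together than the means for miR-451a, and 2 CM mice held by far the highest levels of every member, mouse 3336 (48492, 66993 and 376072 CPM) and mouse 3368 (29753, 38184 and 215183 CPM, in the same order). The log2 fold changes were 2.94 ± 0.63 for miR-144-5p, 2.00 ± 0.48 for miR-144-3p and 1.90 ± 0.62 for miR-451a, with edgeR adjusted p of 0.00570, 0.0105 and 0.0343. Of all miRNAs tested, 27.5% were called, 14.6% higher in CM mice and 12.9% lower.

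Without those 2 mice the differences at month 1 were smaller for all 3 members, and the call was kept for both arms of miR-144 but not for miR-451a. Without CM mice 3336 and 3368, a choice made after their levels were seen, the fold changes were 1.28 ± 0.19 (adjusted p = 0.000971) for miR-144-5p, 1.04 ± 0.29 (0.0282) for miR-144-3p and 0.30 ± 0.27 (0.494) for miR-451a. The call for miR-451a was lost on leaving out CM mouse 3336 or 3368, or Ctrl mouse 3339, 3340, 3342, 3346 or 3350, one at a time (1.25 to 1.90, adjusted p = 0.0578 to 0.0928). With sex in the fit it was not called (1.8, adjusted p = 0.0605). From the authors' normalised table, which counts miR-451a differently, it did not pass either (1.01 on the log2(CPM + 1) scale, limma adjusted p = 0.188). The library titles carry a number from 1 to 7 after the letter G, which they do not explain, and at month 1 only 3 of these numbers held libraries of both arms. With that number as a covariate the fold changes were 1.71, 1.33 and 0.85 (adjusted p = 0.170, 0.196 and 0.473), while calls over all miRNAs went from 130 to 10.

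In the following months the difference was largely that of miR-144. At month 2, miR-144-5p was at 824, 2277 and 3079 CPM in CM mice (lowest, median and highest of 6) and at 367, 848 and 1526 CPM in Ctrl mice, with 5 of 6 CM mice above every Ctrl mouse. It was higher in CM mice by 1.23 ± 0.33 on the log2 scale (adjusted p = 0.0228), against 13.5% of all miRNAs called in either direction. MiR-144-3p (0.38 ± 0.37, adjusted p = 0.501) and miR-451a (0.52 ± 0.26, 0.170) did not pass the test. At month 2, 2 G numbers held libraries of both arms. The call for miR-144-5p was lost with sex or the G number in the fit and when all training libraries were fitted together, and miR-451a was called without CM mouse 3370 (0.71, adjusted p = 0.0495).

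At month 3, miR-144-5p was at 2607, 4141 and 7625 CPM in CM mice and at 1603, 2515 and 3100 CPM in Ctrl mice. MiR-144-3p was at 2127, 10688 and 18033 CPM in CM and at 2805, 3725 and 6449 CPM in Ctrl mice. MiR-451a was at 17771, 29738 and 52363 CPM in CM and at 22084, 29270 and 39892 CPM in Ctrl mice. For miR-144-5p 6 of 7 CM mice lay above every Ctrl mouse and for miR-144-3p 4 of 7, whereas the medians of miR-451a were nearly equal. Both arms of miR-144 were higher in CM mice, miR-144-5p by 1.14 ± 0.24 (adjusted p = 0.00466) and miR-144-3p by 1.24 ± 0.38 (0.0293), where 22% of all miRNAs were called and 14.3% were called higher. MiR-451a was not called (0.19 ± 0.22, adjusted p = 0.600). The call for miR-144-3p was lost on leaving out CM mouse 3357 or Ctrl mouse 3335, 3339, 3340, 3349 or 3350, one at a time (1.02 to 1.22, adjusted p = 0.0545 to 0.0655). Neither arm of miR-144 was called when all training libraries were fitted together. With the G number in the fit they were not called, but at month 3 only 1 number held both arms, with 1 library of each, so that fit says little on the arms.

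From month 4 to month 6 none of the members passed the test. At month 4, 0.837% of the miRNAs tested were called, and the fold changes were 0.76 ± 0.31, 1.03 ± 0.37 and 0.23 ± 0.33 for miR-144-5p, miR-144-3p and miR-451a. At month 5, where 0% of 505 miRNAs were called by edgeR and 21.6% had an unadjusted p under 0.05, they were 0.97 ± 0.40, 0.90 ± 0.38 and 0.54 ± 0.30. Without Ctrl mouse 3335 both arms of miR-144 were called at month 5 (1.40 and 1.17, adjusted p = 0.0242 and 0.0387). At month 6, where 0% of 444 were called and 31 had an unadjusted p under 0.05, they were 0.12 ± 0.44, -0.13 ± 0.36 and -0.58 ± 0.45. The CM median stood above the Ctrl median in 6 of these 6 months after induction (months 1 to 6) for each arm of miR-144 and in 5 of 6 for miR-451a.

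**Figure D2:**
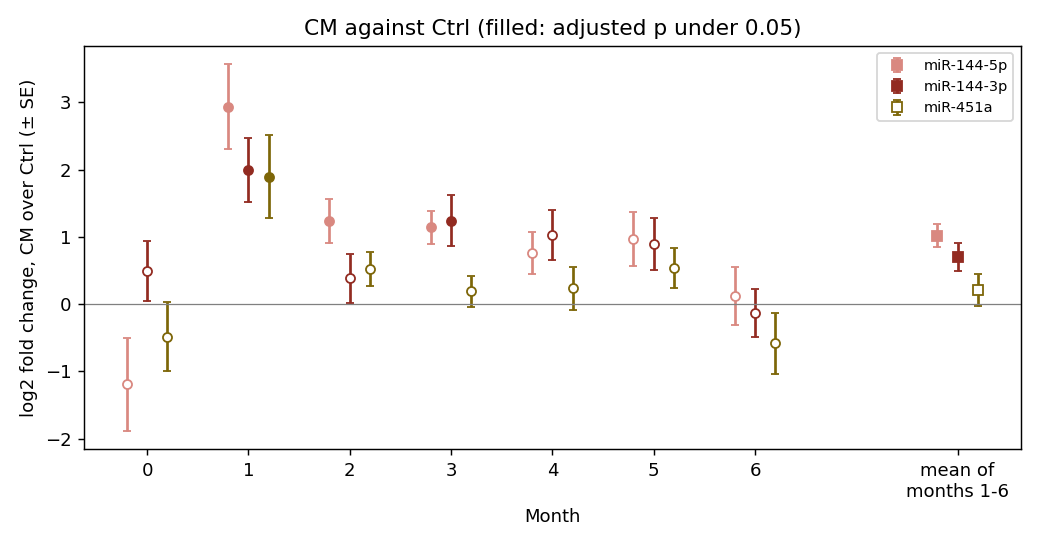
Log2 fold change (CM over Ctrl, bars ± SE) of the 3 members by month and for the mouse means over months 1 to 6, with filled symbols where the adjusted p is under 0.05. All 3 members are filled at month 1, only miR-144-5p at month 2, both arms of miR-144 at month 3, and neither month 0 nor months 4 to 6 has a filled symbol.

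Averaging each mouse over months 1 to 6 gave 1 value per animal, and both arms of miR-144 passed the test while miR-451a did not. The averages did not all cover the same months, with 6 libraries for each Ctrl mouse and 4 to 6 for each CM mouse. CM mice 3338 and 3357, with 4 libraries each, had none after month 4. Levels differed between months, so month and arm are not fully separated in these means. On the log2 CPM scale the 7 CM mice had means of miR-144-5p from 12 to 13.15 and the 7 Ctrl mice from 11.15 to 11.70, so that every CM mouse was above every Ctrl mouse, as groups did not overlap for 12.3% of all 496 miRNAs. For miR-144-3p the ranges were 12.48 to 14.08 and 12.28 to 12.88, with 4 of 7 CM mice above every Ctrl mouse. For miR-451a they were 14.32 to 16.11 and 14.69 to 15.31, with 3 of 7 CM mice above every Ctrl mouse and the Ctrl range inside the CM range. MiR-144-5p was higher in CM mice by 1.02 ± 0.17 (limma adjusted p = 0.000464) and miR-144-3p by 0.70 ± 0.21 (0.0141), and miR-451a did not pass the test (0.20 ± 0.24, 0.514). Of all miRNAs tested on mouse means, 37.1% were called, 18.8% higher and 18.3% lower.

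The Ctrl genotypes were compared as ranges only, with 1 to 4 mice each. The 4 CW mice had mean log2 CPM of miR-144-5p from 11.15 to 11.69, the 2 HW mice 11.47 and 11.70, and the WT mouse 11.48. For miR-144-3p the CW mice spanned 12.29 to 12.56 and the HW mice had 12.28 and 12.86, while the WT mouse was the highest at 12.88. For miR-451a the CW mice spanned 14.69 to 15.31, the HW mice 14.96 and 15.20, and the WT mouse had 15.18. CM and Ctrl libraries that shared both the G number and the month formed 11 sets over months 1 to 6, with 13 CM and 17 Ctrl libraries, some of them from the same mice. Within these sets miR-144-5p was higher in CM libraries in 11 of 11 (by 0.45 to 3.71 on the log2 scale), miR-144-3p in 10 of 11 (-0.40 to 2.76) and miR-451a in 10 of 11 (-0.31 to 2.47). Most sets held 1 library of each arm, and this grouping was made after the values were seen.

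Changes over time within CM mice were compared next. From month 0 to month 1, miR-144-5p was higher in 7 of 7 CM mice, miR-144-3p in 6 of 7 and miR-451a in 4 of 7. In mouse 3370 miR-144-5p was nearly unchanged, at 3637 CPM at month 0 and 3651 CPM at month 1. MiR-144-5p passed the test (2.05 ± 0.64, edgeR adjusted p = 0.0482), and miR-144-3p (1.44 ± 0.51, 0.0702) and miR-451a (1.30 ± 0.64, 0.178) did not, where 12.7% of all miRNAs were called. With the mouse as a block, miR-144-5p was no longer called (1.24, adjusted p = 0.107), nor on leaving out any 1 CM mouse other than 3334 (1.34 to 2.33, adjusted p = 0.0621 to 0.183). From month 1 to month 3 none was called, where 1.1% of 453 miRNAs were, and the changes were -1.46 ± 0.62, -1.27 ± 0.54 and -1.71 ± 0.61.

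In Ctrl mice, miR-144-5p was higher at month 1 than at month 0 in 4 of 7 mice, miR-144-3p in 5 of 7 and miR-451a in 3 of 7. None was called, where 0.63% of 476 miRNAs were, and the changes were -2.17 ± 0.68, -0.13 ± 0.41 and -1.17 ± 0.49. The difference between the arms in the change from month 0 to month 1 was 4.28 ± 0.99 for miR-144-5p (adjusted p = 0.00799), 1.62 ± 0.69 for miR-144-3p (0.132) and 2.52 ± 0.86 for miR-451a (0.0609), where 8.46% of 520 miRNAs were called. For miR-144-5p it was 2.54 (adjusted p = 0.0904) without Ctrl mice 3340 and 3342, left out after their high month 0 levels were seen, and 2.33 (0.146) with the mouse as a block. For the change from month 1 to month 3, 0% of 514 miRNAs differed between arms by edgeR (84 at an unadjusted p under 0.05), and the members' differences were -1.78 ± 0.66, -0.75 ± 0.61 and -1.70 ± 0.66.

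Later in Ctrl mice the level of miR-144-3p was higher. At month 6 it was at 7888, 12906 and 22508 CPM (lowest, median and highest of 7), against 1947, 4730 and 13369 CPM at month 0, and 6 of 7 mice were higher. The change was 1.22 ± 0.41 (adjusted p = 0.0469), where 20.5% of 474 miRNAs were called, and 1.48 with the mouse as a block (adjusted p = 0.0607). The call was lost on leaving out Ctrl mouse 3339, 3340, 3346, 3349 or 3350, one at a time (0.96 to 1.38, adjusted p = 0.0648 to 0.121). MiR-144-5p (-0.15 ± 0.68) and miR-451a (0.62 ± 0.52) were not called. At month 10 none of the 3 was called (-0.43 ± 0.72, 0.99 ± 0.43 and 0.33 ± 0.50), where 26.8% of 477 were. At month 10 miR-144-3p was called without Ctrl mouse 3342 (1.38, adjusted p = 0.0313). Mice 3340 and 3342 were also left out together because their month 0 levels, the baseline of these changes, were seen to be the highest, a choice that raises the changes by construction. Without both, all 3 members were called higher at month 6 (miR-144-5p by 1.70, adjusted p = 0.0464, and miR-451a by 1.62, 0.0290), and at month 10 miR-144-3p (1.67, 0.0267) and miR-451a (1.31, 0.0267).

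The last library of each CM mouse, taken between month 4 and month 10, showed the members apart. MiR-451a was lower than the same mouse's month 0 library in 7 of 7 mice, as held for 18.2% of 446 miRNAs. It was also below every Ctrl library of the same month in 7 of 7 mice, as held for 1.12% of them. Mouse 3338 was at 11650 CPM at month 4 against 28969 CPM at month 0, with Ctrl mice at month 4 between 26771 and 53062 CPM. Mouse 3357 was at 20725 CPM at month 4 against 66883 CPM at month 0. Mouse 3341 was at 14494 CPM at month 6 against 24648 CPM at month 0, with Ctrl mice at month 6 between 40305 and 214109 CPM. These 3 mice had the earliest last libraries.

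Mouse 3334 had its last library at month 6.5, for which Ctrl mice of month 6 were used, and was at 16742 CPM against 23666 CPM at month 0. Mouse 3336, which had the highest miR-451a level of the training cohort at month 1, was at 21407 CPM at month 7 against 36762 CPM at month 0, with Ctrl mice between 63654 and 119069 CPM. Mouse 3370 was at 25214 CPM at month 9 against 44100 CPM, with Ctrl mice between 43238 and 77685 CPM. Mouse 3368 was at 46323 CPM at month 10 against 95219 CPM, with Ctrl mice between 50211 and 109399 CPM. The last level was thus between 0.310 and 0.707 of the month 0 level. The other 4 miRNAs below every Ctrl library in all 7 mice were miR-345-5p, miR-350-3p, miR-466i-5p and miR-574-5p, all 5 being named after their values were seen.

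MiR-144-5p was above its month 0 level in 6 of 7 last libraries and below every Ctrl library of the month in 1. MiR-144-3p was above its month 0 level in 1 of 7 and below every Ctrl library in 2. The fitted change from month 0 to the last library was -0.91 ± 0.34 for miR-451a (edgeR adjusted p = 0.0462), 0.57 ± 0.28 for miR-144-5p (0.114) and -0.19 ± 0.32 for miR-144-3p (0.651), where 39% of 446 miRNAs were called. With the mouse as a block miR-451a fell by 0.85 ± 0.20 on the log2 scale (adjusted p = 0.0162). The unblocked call for miR-451a was lost on leaving out any 1 mouse other than 3368 (-0.998 to -0.782, adjusted p = 0.0582 to 0.130), and without mouse 3368 miR-144-5p was called as well (0.76, adjusted p = 0.0156).

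**Figure D3:**
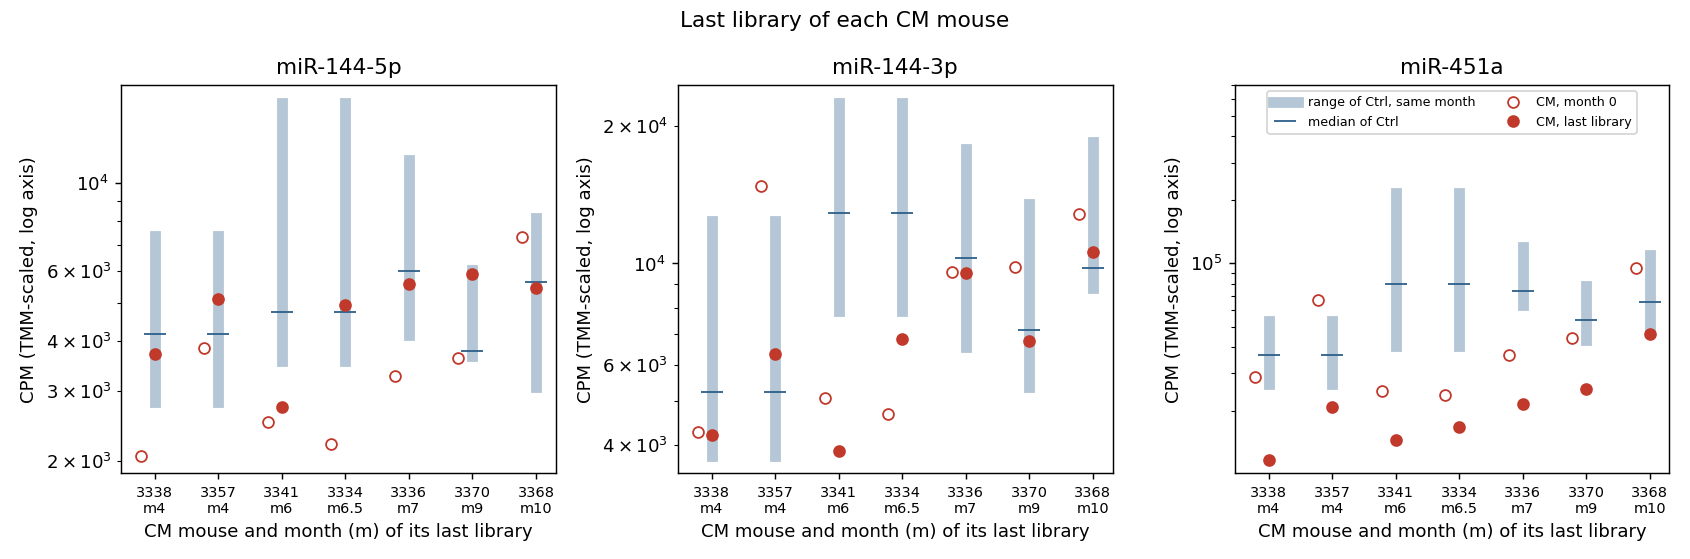
CPM (TMM-scaled, log axis) of each member in the last library of each CM mouse (filled circles) and in its month 0 library (open circles), beside the range (bars) and median (dashes) of the Ctrl libraries of the same month. For miR-451a 7 of 7 filled circles lie below the Ctrl bar and below the open circle, whereas for miR-144-5p 6 of 7 lie above the open circle.

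The relation between the 2 genes was measured within each library as the counts of miR-451a per count of miR-144, both arms together, which does not depend on the scaling of the library. It was lower in CM than in Ctrl mice in the mean of 7 of 7 months, month 0 included. At month 0 it was 2.86, 3.43 and 4.73 (lowest, median and highest) in CM and 3.4, 4.83 and 6.44 in Ctrl mice. At month 1 it was 1.53, 2.32 and 3.26 in CM and 2.35, 3.88 and 4.86 in Ctrl mice. At month 3 it was 1.29, 2.43 and 3.75 in CM and 3.27, 5.01 and 6.19 in Ctrl mice, with 6 of 7 CM mice below every Ctrl mouse.

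The month 3 difference was -0.96 on the log2 scale (exact two-sided permutation test, p = 0.00175, Benjamini-Hochberg adjusted over 14 ratio tests 0.0245). The differences at months 0, 1, 4 and 5 were -0.44, -0.61, -0.75 and -0.45, with exact permutation p of 0.0256, 0.0111, 0.00932 and 0.0328 and adjusted values of 0.0718, 0.0517, 0.0517 and 0.0766, which did not pass. On leaving out 1 mouse, that of month 0 passed without Ctrl mouse 3335, that of month 1 without CM mouse 3336 or Ctrl mouse 3335 or 3342, and that of month 4 without CM mouse 3370 or Ctrl mouse 3335, 3349 or 3350 (adjusted exact permutation p = 0.0163 to 0.0490 over these 8 fits). At months 2 and 6 the differences were -0.09 and -0.50 (exact permutation p = 0.634 and 0.0985). Averaged over months 1 to 6, the ratio was between 1.90 and 2.90 in the 7 CM mice and between 3.38 and 4.10 in the 7 Ctrl mice, with no overlap. These averages cover 4 to 6 libraries per CM mouse and 6 per Ctrl mouse, so the months are not the same in all mice. Within the sets that shared G number and month it was lower in CM libraries in 9 of 11 (differences from -1.05 to 0.22).

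How miR-451a was counted moved this ratio. The reads behind the authors' normalised table amounted to a median of 0.408 of the counts for miR-451a in CM libraries (0.262 to 0.589) and 0.470 in Ctrl libraries (0.323 to 0.634), against 0.951 and 0.945 for miR-144-5p and 0.909 in both arms for miR-144-3p. The median share of miR-451a that the normalised table kept was thus lower in CM libraries, with overlapping ranges. These medians pool all training libraries, several per mouse and not matched by month, and the difference was not tested. In the normalised table the ratio passed the adjusted threshold in 6 of 7 months, month 0 included (adjusted p = 0.0404 by the exact permutation test). The 2 tables otherwise ordered libraries alike, with log2 correlations over all training libraries of 0.998, 0.997 and 0.976 for miR-144-5p, miR-144-3p and miR-451a.

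The ratio of the arms, miR-144-3p over miR-144-5p, did not pass the adjusted test in any month. Its largest differences were 0.96 at month 0, when CM mice had the higher ratio (exact permutation p = 0.0420, adjusted 0.0839), and -0.92 at month 2, when they had the lower one (p = 0.0186, adjusted 0.0653, exact permutation test). At month 0 the arm ratio was 1.75, 2.11 and 3.82 in CM and 0.477, 1.52 and 3.55 in Ctrl mice. Both directions therefore occurred. The month 0 difference passed without Ctrl mouse 3335 (1.21, adjusted 0.0245) and the month 2 difference without CM mouse 3336 or Ctrl mouse 3342 (-1.12 and -1.07, adjusted 0.0202 to 0.0442, exact permutation test).

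**Figure D4:**
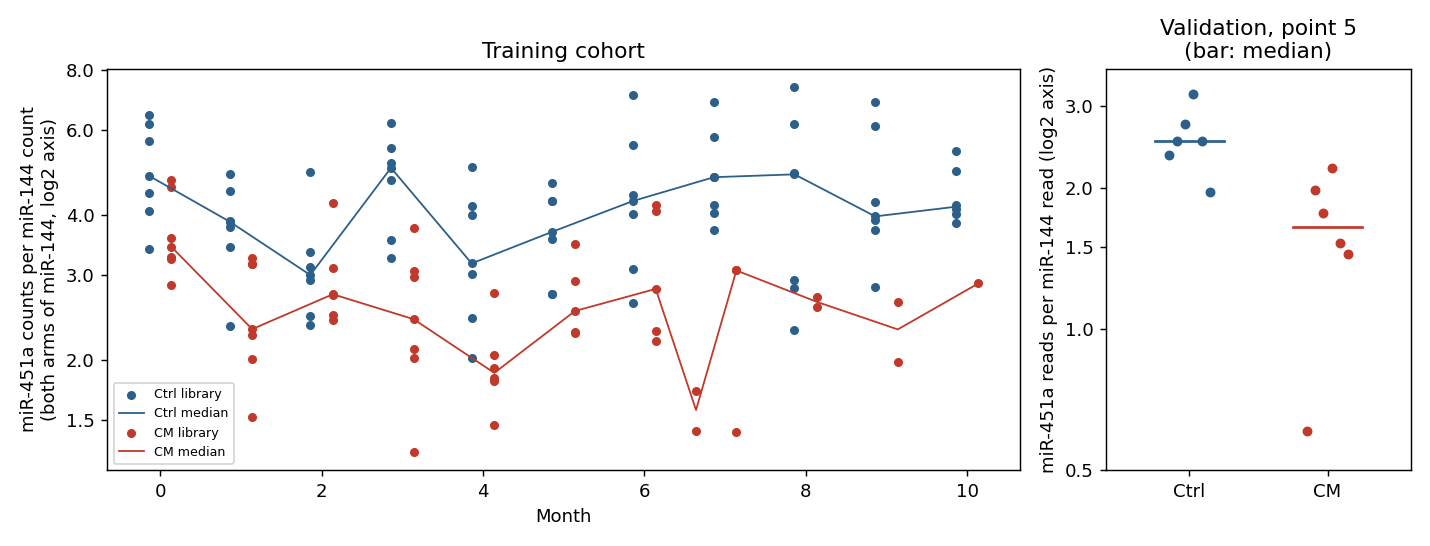
Counts of miR-451a per count of miR-144 (both arms, log2 axis) in each training library by month (left, lines through medians) and reads of miR-451a per read of miR-144 in each validation library at point 5 (right, bars at medians). At month 3 the CM median is 2.43 and the Ctrl median 5.01, and at validation point 5 they are 1.64 and 2.53.

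The validation cohort could be read at only 1 of its points. At point 5 the 12 libraries (6 CM and 6 Ctrl mice) held between 1645456 and 5445215 reads, and the other 90 libraries between 1744 and 76906 (median 20808). In those 90, miR-144-5p had a read in 26 libraries (5 at most), miR-144-3p in 42 (10 at most) and miR-451a in 62 (14 at most), and more than 3 reads were seen in 1, 6 and 19 libraries. For the members, differences between arms were not detectable at this depth, and none passed the limma test at any point. Of all miRNAs tested, 0% passed at points 1, 3, 4, 6 and 7, 2.78% at point 2, and 18.1% between points L and 1 in CM mice.

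At point 5, miR-144-5p was at 16842, 31735 and 98427 CPM in CM mice (lowest, median and highest of 6) and at 20670, 33867 and 101107 CPM in Ctrl mice. MiR-144-3p was at 60637, 75977 and 179109 CPM in CM and at 69112, 81089 and 141742 CPM in Ctrl mice. MiR-451a was at 78386, 178973 and 424217 CPM in CM and at 219741, 283254 and 613096 CPM in Ctrl mice. These CPM carry the authors' scaling and are not shares of a library. In Ctrl mouse 2705, 613096 CPM of miR-451a stood for 198087 of 4445968 recovered reads. The arms overlapped for each member. On the log2(CPM + 1) scale the differences were -0.18 ± 0.40, -0.00 ± 0.30 and -0.83 ± 0.37, with limma adjusted p of 0.982, 0.999 and 0.816, where 0% of 930 miRNAs were called and 54 had an unadjusted p under 0.05, miR-451a among them (0.0368).

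The ratio of miR-451a to miR-144 at point 5 was 0.606, 1.64 and 2.20 in CM and 1.96, 2.53 and 3.18 in Ctrl mice, with 4 of 6 CM mice below every Ctrl mouse. The difference was -0.77 on the log2 scale (exact two-sided permutation test, p = 0.00649, adjusted over 2 tests 0.0130), and this test was added after the training ratios had been seen. It could be computed only from the authors' normalised table. In the training cohort that table kept a smaller median share of miR-451a in CM than in Ctrl libraries, with overlapping ranges. Whether it did so here was not tested. The ratio of the miR-144 arms differed by 0.17 (exact permutation p = 0.615). The 2 cohorts were normalised in separate tables, so levels were not compared between them.

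Across the training libraries the members moved together. Spearman's rho between their log2 CPM was 0.86 for the arms of miR-144, 0.82 for miR-144-5p and miR-451a and 0.85 for miR-144-3p and miR-451a. After the mean of each arm and month was removed, rho was 0.78, 0.81 and 0.83 in the same order. Of the 328 other miRNAs compared, those most like the mean of the members were miR-30a-5p (0.93), miR-486b-5p (0.88), miR-486a-5p (0.87), miR-486b-3p (0.85) and miR-30a-3p (0.85), against a median of -0.04. The lowest were miR-146b-5p (-0.70), miR-501-3p (-0.68) and miR-30c-1-3p (-0.66). MiR-486 is an erythroid miRNA hosted by the ankyrin gene Ank1, and miR-146b is known in inflammatory signalling. These are descriptions over libraries that share mice and month.

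Other miRNAs of blood cells were taken as lists beside the cluster. Of 13 further red cell and erythroid miRNAs, 7 were higher in CM mice at month 1 and 0 lower, with a median log2 fold change of 0.92 against -0.10 over all miRNAs tested, of which 14.6% were called higher and 12.9% lower. MiR-486b-5p was at 12907, 18890 and 139084 CPM in CM (lowest, median and highest of 7) and at 5867, 7928 and 15794 CPM in Ctrl mice. It was higher by 2.46 (adjusted p = 0.0110), and miR-486a-3p by 2.98 ± 0.60 (0.00523), miR-486b-3p by 2.73 (0.00523) and miR-486a-5p by 2.71 (0.00729). The highest miR-486b-5p levels were again those of CM mice 3368 and 3336. MiR-486a and miR-486b are nearly identical copies on opposite strands, so the split of reads between them is uncertain. MiR-25-3p (1.11), miR-182-5p (0.98) and miR-96-5p (0.75) were the other 3 that were higher, and are named here after their values were seen. Of the other 6, miR-183-5p (0.92) and miR-93-5p (0.52) had fold changes above 0, and miR-16-5p (-0.14), miR-92a-3p (-0.16), miR-363-3p (-0.16) and miR-210-3p (-0.10) below 0.

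Without mice 3336 and 3368, 6 of the 13 were called higher, all 6 among the 7 above, and with the G number in the fit 0 were. Without Ctrl mouse 3339, 3340, 3342 or 3349, one at a time, 4 were called higher. At month 3, 4 of 13 were higher and 0 lower, where 14.3% of all miRNAs were called higher. All 4 were products of miR-486a and miR-486b, which are not separate evidence, and the other 9 of the list were not called. On mouse means over months 1 to 6, 8 were higher and 1 lower, where 18.8% and 18.3% of all miRNAs were. The lower one was miR-210-3p (-0.57), which is known as a hypoxia-induced miRNA. Summed over the 13, the level at month 1 was at 34682, 46561 and 236273 CPM in CM mice (lowest, median and highest) and at 28306, 42373 and 81491 CPM in Ctrl mice, with overlapping arms. At month 3 the median of the sum was lower in CM mice (52455 CPM) than in Ctrl mice (66069 CPM), again with overlapping arms.

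Of 6 miRNAs known to fall as erythroid cells mature, 0 were called at month 1 (median -0.41), where 27.5% of all 472 miRNAs tested were. Among them, miR-223-3p had a fold change of -0.84 (adjusted p = 0.160), miR-150-5p of -0.46 (0.244), miR-24-3p of -0.54 (0.603) and miR-222-3p of 0.54 (0.189). Of 5 mature lymphocyte miRNAs 0 were called (median -0.29), beside the same 27.5% of all miRNAs. Among them miR-181a-5p was at -1.33 (0.103), miR-342-3p at -0.29 (0.460) and miR-146a-5p at -0.26 (0.565). Of 4 myeloid miRNAs 1 was lower, where 12.9% of all miRNAs were, namely miR-147-3p (-1.84 ± 0.50, adjusted p = 0.0164), an inflammation-induced miRNA of macrophages at 5.58 to 18.1 CPM in CM and 11.8 to 102.6 CPM in Ctrl mice, and without mice 3336 and 3368 it was at -1.62 ± 0.59 and not called (0.0722). MiR-223-5p (-0.40, adjusted p = 0.327) and miR-21a-5p (-0.19, 0.454) did not pass the test. MiR-150-5p and miR-223-3p stand in 2 lists each.

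Of 5 platelet and endothelial miRNAs 3 could be tested. MiR-126a-5p (1.82 ± 0.18) and miR-126a-3p (1.68 ± 0.17) were higher in CM mice at month 1 (edgeR adjusted p = 1.05e-05 for both). Of all miRNAs tested, 14.6% were called higher. MiR-28a-5p, the only other miRNA of this list that was tested, was at -0.01 (0.962). The paper reports that the fusion gene itself raises miR-126 in blood mononuclear cells and in stem and progenitor cells. Whether the rise of the miR-126a products here came from platelet or endothelial RNA was not tested. MiR-126a-3p was between 231 and 449 CPM in CM and between 85.9 and 130 CPM in Ctrl mice, with no overlap, as for 5.08% of the 472 miRNAs tested. The summed level of that list at month 1 was 838 to 1287 CPM in CM and 505 to 669 CPM in Ctrl mice. In that sum miR-199a-3p had a median of 0 CPM in each arm. The part of other cell types' RNA in the differences of the cluster was not tested.

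**Figure D5:**
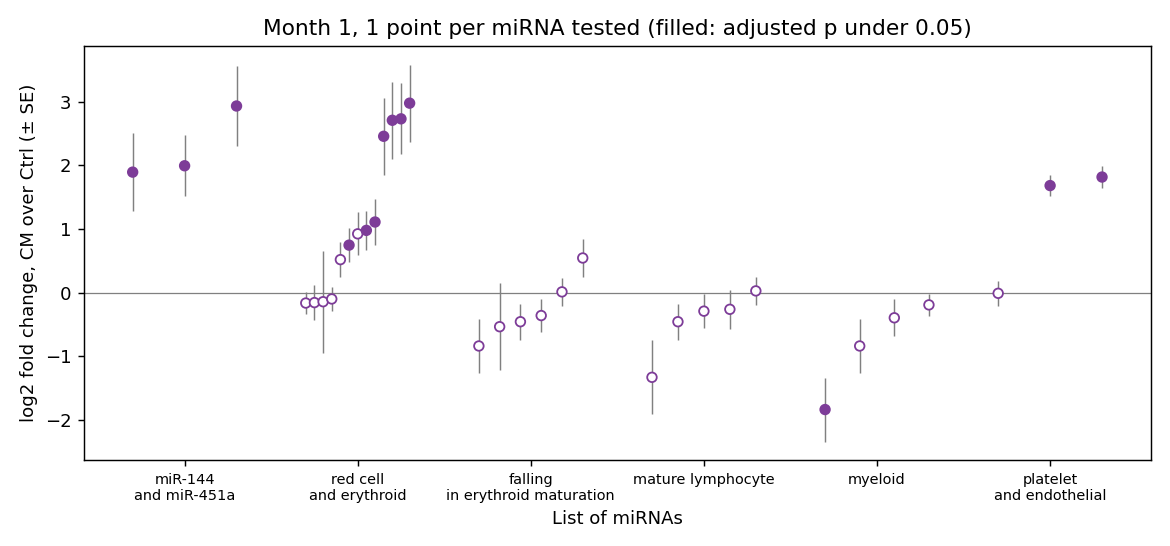
Log2 fold change at month 1 (CM over Ctrl, bars ± SE) of each tested miRNA in the 5 lists and of the 3 members, with filled points where the adjusted p is under 0.05. In the red cell and erythroid list 7 of 13 points are filled and above 0, and in the lists of lymphocyte miRNAs and of miRNAs falling in maturation none is filled.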

How the data were processed

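Small RNA libraries were prepared by the authors from PBMC RNA and trimmed with cutadapt, aligned with Bowtie and counted per mature miRNA. The sources name mm9 in the study's methods and GRCm38 in the submitters' processing notes. For the training cohort the authors deposited raw counts per mature miRNA made with mirTOP, and for both cohorts a table of signal values, TMM-scaled CPM computed by the authors with edgeR. All low values of the deposited CPM were whole multiples of 1 read (100% within 0.1 read, 2 validation libraries not checked), so reads were recovered.

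Training counts were tested with edgeR 4.0.16 (TMM, filterByExpr, quasi-likelihood F test), and mouse means and validation log2(CPM + 1) with limma 3.58.1, under R 4.3.3. Printed CPM of the training cohort were TMM-scaled from the counts. P-values were Benjamini-Hochberg adjusted over all miRNAs tested, with a threshold of 0.05. For ratios, every assignment of mice to the arms was enumerated (exact permutation test, scipy 1.17.1). Alternatives were DESeq2 1.42.0, other scalings, filters, pseudocounts, covariates, deposited CPM and leaving out mice. Scripts were tested on simulated data. Same-mouse libraries paired the time points, since they came from the same animals, although correlations of their deviations from the group means were only -0.34 to 0.16. P-values between time points without the block treat those libraries as separate. The members and the lists were chosen with earlier results of these data known. Likeness was Spearman's rho with the members' mean log2 CPM, the 5 highest and 3 lowest being named. From each list, up to 4 miRNAs with the largest absolute fold change at month 1 were named.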

Additional observations from a re-analysis of the deposited data

Results flagged for a closer look

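In 9 of 96 groups of libraries 1 mouse stood far from the rest of its group by Dixon's test. The test's chance rate of about 1 in 20 groups holds for normally distributed, independent groups. These groups share libraries and mice, so 9 of 96 cannot be set against that rate. In CM mice these were miR-144-5p at month 0 in mouse 3368 (7320 CPM) and the ratio of miR-144-3p to miR-144-5p at month 5 in mouse 3334 (3.44). In Ctrl mice they were miR-144-5p at month 5 in mouse 3335 (16746 CPM), miR-144-3p at month 10 in mouse 3335 (18414 CPM), and miR-451a at month 6 in mouse 3349 (214109 CPM) and at month 8 in mouse 3346 (291362 CPM). The ratio of miR-451a to miR-144 at month 2 stood apart in Ctrl mouse 3342 (4.92). At validation point 5, miR-144-5p of CM mouse 2709 (98427 CPM) and miR-144-3p of Ctrl mouse 2705 (141742 CPM) stood apart.

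The change of miR-144-5p from month 0 to month 1 differed between arms by 4.28 on the log2 scale (edgeR adjusted p = 0.00799), as tested by the interaction term. That fit did not include the mouse. With the mouse as a block the difference was 2.33 and was not called (edgeR adjusted p = 0.146). Without Ctrl mice 3340 and 3342, left out after their high month 0 levels were seen, it was 2.54 and not called (0.0904).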

How the results depend on the processing

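The number of members called (of 3) was 3 at month 1 and 0 once the G number entered that fit. With sex in the fit or from the deposited CPM, both arms of miR-144 stayed called at month 1 and miR-451a did not. The month 1 call for miR-451a was also lost on leaving out 1 mouse, for 7 of the mice (edgeR adjusted p = 0.0578 to 0.0928). At month 2 the number called went from 1 to 0 with sex, the G number or a joint fit of all training libraries. At month 3 it went from 2 to 1 with sex or the deposited CPM (either pseudocount) and to 0 with the G number or the joint fit. Between months 0 and 1 in CM mice it went from 1 to 0 with raw library sizes and to 2 with DESeq2, in Ctrl mice from 0 to 1 with DESeq2, and for the difference between arms from 1 to 2 with DESeq2 and to 0 without Ctrl mice 3340 and 3342. Without those mice it went from 1 to 3 at month 6 and from 0 to 2 at month 10 in Ctrl mice. Between points L and 1 it went from 0 to 2 with a pseudocount of 10, on the few reads of those libraries. From the deposited CPM the months past the threshold went from 0 to 1 for the ratio of the miR-144 arms and from 1 to 6 for miR-451a over miR-144. The causes were not tested.

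With the mouse as a replicate block, the pairing changed 1 call to 0 in CM mice from month 0 to 1, in Ctrl mice from month 0 to 6 and in the difference between arms, and no other count of called members. Under the block 3 changes in Ctrl mice turned direction, miR-144-3p at month 1 (0.15) and miR-144-5p at months 6 (0.75) and 10 (0.84).

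Other values turned direction as follows, all uncalled but for miR-144-5p at month 6 without Ctrl mice 3340 and 3342. With the G number they were miR-144-3p and miR-451a at month 3 (-0.18 and -0.10) and at month 6 (0.50 and 0.15), where only 1 number held both arms (1 library of each at month 3, 2 CM and 1 Ctrl at month 6), and at month 4 that fit was not run because no number held both arms. From the deposited CPM they were miR-451a at months 3 (-0.102) and 4 (-0.0789), and from recovered validation reads miR-144-3p at point 5 (0.0604). Without Ctrl mice 3340 and 3342 they were miR-144-3p (0.61) and miR-451a (0.0420) at month 1 and miR-144-5p at months 6 (1.70) and 10 (1.32). Among list miRNAs at month 1 without CM mice 3336 and 3368 they were miR-342-3p (0.0479), miR-146a-5p (0.0720), miR-21a-5p (0.0288) and miR-28a-5p (0.27). The last, near 0, also turned with DESeq2 (0.0430), library sizes without the members (0.0331), no filter (0.0635), deposited CPM (0.0236, or 0.0235 with a pseudocount of 0.5) and recovered reads (0.0806).

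Leaving out 1 mouse at a time gave 1 to 2 called members at month 2, 1 to 2 at month 3, 0 to 2 at month 5, 0 to 1 between months 0 and 1 in CM mice, 0 to 2 for the last library, and 0 to 1 at months 6 and 10 in Ctrl mice. The months past the threshold were 0 to 1 for the arm ratio and 1 to 4 for miR-451a over miR-144. Direction turned for miR-451a at month 0 (-0.75 to 0.12), miR-144-5p (-0.21 to 0.44) and miR-144-3p (-0.34 to 0.0664) at month 6, miR-144-3p at month 1 in Ctrl mice (-0.30 to 0.23), miR-144-5p at months 6 (-0.60 to 0.79) and 10 (-0.67 to 0.50) in Ctrl mice, miR-144-3p (-0.21 to 0.14) and miR-144-5p (-0.48 to 0.0933) at validation point 5, the arm ratio at months 3 (-0.17 to 0.15) and 4 (-0.00625 to 0.35), miR-451a over miR-144 at month 2 (-0.20 to 0.0244) and miR-28a-5p (-0.0795 to 0.16). The validation difference of miR-451a over miR-144, an alternative added after seeing the data, stayed past the threshold (-0.89 to -0.51).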
